A study of Mus musculus with 12 samples.

Results

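The 40 genes described here are the replication and mitosis genes of the cell cycle, chosen by symbol from the 18433 genes of the deposited table. The list was made with earlier results of these data known, and all 40 symbols were found. They fall into 15 genes of DNA replication and S phase, 23 genes of mitosis, and Mki67 and Top2a, which are read as general marks of cycling cells. RNA was sequenced in 12 libraries from tumours grown under the skin of the right flank of BALB/c mice from 4T1 cells, a mouse mammary carcinoma line. Tumour-bearing mice had been randomised to 4 arms of 5, and each arm gave 3 libraries. The control arm had no treatment named in its labels, the DSF arm received that agent (the usual abbreviation of the drug disulfiram) by mouth, the anti-PD-1 arm a blocking antibody against the T cell receptor PD-1 into the peritoneum, and the combination arm received both. Doses, treatment times and the age of the mice are not given in the sources used here, and all 4 arms carried the same 4T1 graft. The labels do not say that the 3 libraries of an arm came from separate mice, so p-values measure the spread between these samples.

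Cells copy their DNA once per cycle and then divide the copies. In G1 the factors Cdc6 and Cdt1 load the ring of Mcm2 to Mcm7 onto replication origins, cyclin E (Ccne1, Ccne2) and the GINS complex (Gins2) help to start synthesis, Pcna clamps the polymerase to the template, and Rrm1, Rrm2 and Tyms supply deoxynucleotides. Transcription of these genes is driven by E2F factors. Later, the MuvB complex with B-Myb and Foxm1 switches on the G2 and mitosis genes: cyclins A2 and B with Cdk1 drive entry, Aurora and Polo kinases build the spindle, Bub1, Bub1b, Mad2l1 and Ttk hold the checkpoint, and Cdc20 and Ube2c direct the destruction that ends mitosis. In a whole tumour these RNAs come from every dividing cell, tumour and host alike. In such bulk RNA, fewer dividing cells and less of an RNA in each dividing cell cannot be told apart.

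All 40 genes were well measured in all 12 libraries. The lowest count of any of them in any library was 206 and the highest was 16877, in libraries of 13323171 to 16809705 counts. Together they took from 0.556% of counts in DSF 2, the lowest, to 0.762% in combination 1, the highest. By FPKM, the deposited unit that divides by transcript length and depth and so lets genes be compared, the ubiquitin-conjugating enzyme Ube2c was the most abundant (319 ± 40.5 FPKM, SD over 12 libraries), with Pcna next (296 ± 33.1). These 2 levels lay within each other's spread. Top2a, the topoisomerase that untangles sister chromosomes, followed at 180 ± 18.5 FPKM. The helicase subunit Mcm6 (123 ± 13.9), cyclin A2 (Ccna2, 121 ± 14.7) and survivin (Birc5, 110 ± 15.6) also lay within 1 SD of one another. At the other end stood the E cyclins, Ccne2 at 7.85 ± 1.74 FPKM and Ccne1 at 9.64 ± 1.16, below the large kinetochore protein Cenpf at 12.5 ± 1.48. The 6 Mcm subunits, which form one ring, were not at one level. Mcm6 had the highest mean, followed by Mcm7 (90 ± 18.1 FPKM) and Mcm3 (66.9 ± 8.01). The ranges of Mcm7 and Mcm3 overlapped, at 61.8 to 127 and 54 to 83.6 FPKM. Mcm5, Mcm4 and Mcm2 lay together at 53.2 ± 7.94, 51 ± 5.14 and 50.3 ± 5.13.

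The label of 4T1 tumour was checked against 8 epithelial markers. The keratins Krt8 (401 to 698 CPM, counts scaled to library size) and Krt18 (368 to 651) were high throughout, while Epcam ranged from 1.39 to 42.4 CPM, Cdh1 from 6.23 to 97.9 and Cldn7 from 0 to 0.937. DSF 2 stood apart by its surrounding tissue. The summed level of 7 adipocyte markers was 7218 CPM there and 51.5 to 483 CPM in the other 11 libraries, and its 7 fibroblast markers were highest too (8602 CPM against 822 to 4591).

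**Figure D1:**
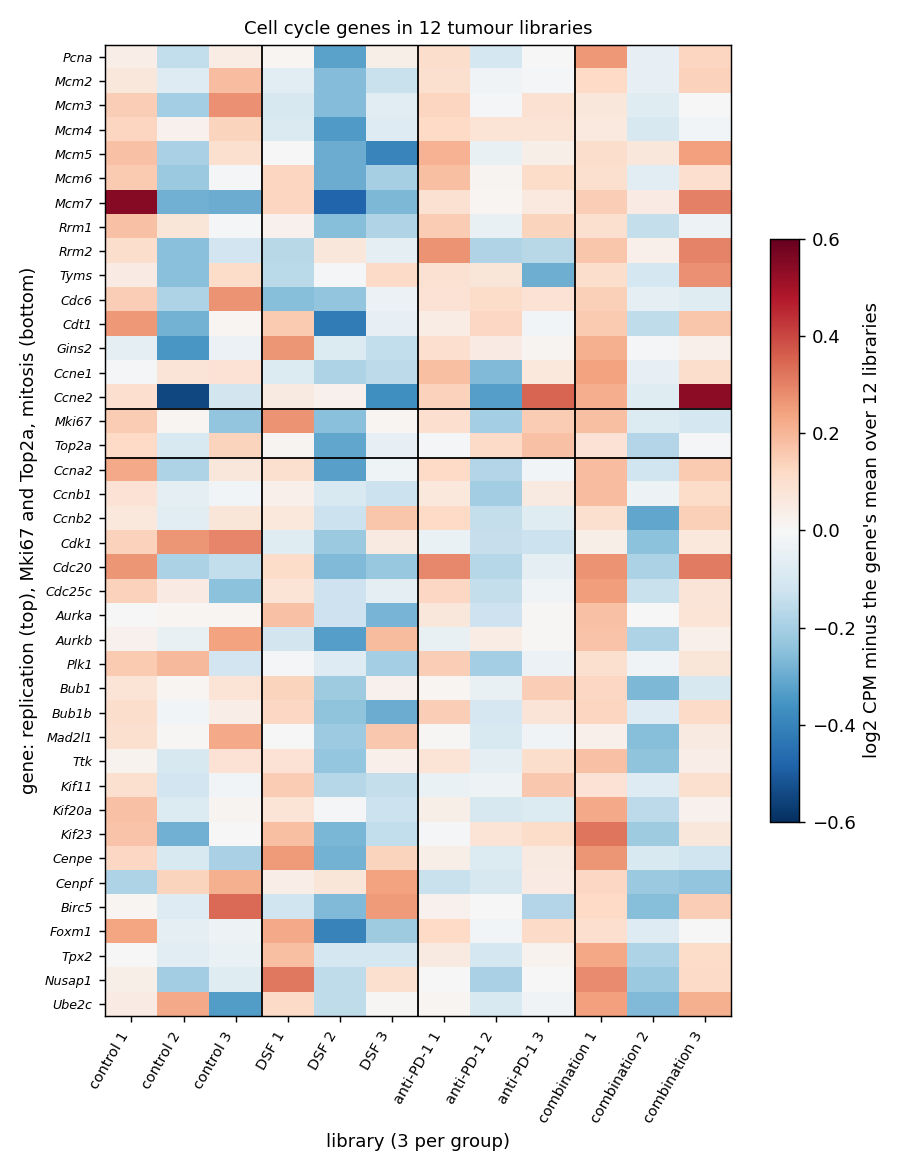
Each row is a gene and each column a library, and colour gives log2 CPM minus the gene's mean over 12 libraries. DSF 2 and combination 2 are blue along most of their columns and combination 1 is red, and no group is of 1 colour throughout.

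Single libraries stood out across the members. DSF 2 held the lowest value of the 12 libraries for 17 of the 40 genes, 42.5%, against 13.3% of all 14144 genes tested. Combination 2 held it for 8 members, 20% against 9.11% of all genes. Combination 1 held the highest value for 10 members, 25% against 3.66% of all genes, and control 3 for 8, 20% against 8.52%. In DSF 2 and in combination 2, 38 of the 40 members lay below their own median library, and in combination 1 none did. Of all 14144 genes, 7338 lay below it in DSF 2, 7034 in combination 2 and 6715 in combination 1. The members share each library, so 38 of 40 is not 38 observations. In each of the 4 groups the library numbered 2 had the lowest mean level of both the replication and the mitosis genes. Besides the adipocyte markers of DSF 2, 9 skin and hair follicle markers summed to 2313 CPM in combination 2, where the controls had 245 to 482. They summed to more, 2850 CPM, in combination 3, where 8 of 40 members lay below their median library, and to 910 CPM in combination 1, the library with the most high values. The part of such tissue in the members' levels was not tested.

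Between libraries the members were steady genes. The highest library was from 1.25 to 2.13 times the lowest, with a median over members of 1.44, and the median over the 8680 genes with means in the same range of CPM was 1.5. The biological coefficient of variation that edgeR estimated had a median of 0.127 over the members, from 0.101 for Mcm4 to 0.214 for Ccne2, and of 0.137 over those 8680 genes. This spread sets the sizes that could be seen: a member's fold change between 2 groups had a median standard error of 0.127 or 0.128 on the log2 scale.

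The proliferation mark Mki67, whose product Ki-67 coats mitotic chromosomes and is stained in tumours to count cycling cells, had group means that lay close together. Mki67 was at 696, 631 and 532 CPM in the control libraries, 754, 526 and 631 under DSF, 672, 544 and 696 under anti-PD-1 and 709, 591 and 581 in the combination. Libraries of 1 group differed by more than the group means did, and the groups overlapped throughout. Means were 620 ± 82.9 (SD, n = 3) in control, 637 ± 114 under DSF, 637 ± 81.8 under anti-PD-1 and 627 ± 71.3 in the combination. The 95% interval of its log2 fold change ran from -0.30 to 0.38 with DSF, from -0.30 to 0.38 with anti-PD-1 and from -0.32 to 0.36 with the combination, each against control. In the controls Top2a measured 975, 842 and 987 CPM, with 909, 724 and 869 under DSF, 891, 974 and 1016 under anti-PD-1 and 953, 796 and 893 in the combination. Its lowest value was that of DSF 2, and the ranges of the 4 groups overlapped.

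Among the replication genes, the loading factor Cdc6 and the helicase subunits had their lowest group mean under DSF. The 3 control libraries held 188, 175 and 189 CPM of Mcm4, those of DSF 162, 136 and 163, those of anti-PD-1 187, 182 and 182 and those of the combination 179, 161 and 170. All 3 DSF libraries lay below all 3 controls and all 3 anti-PD-1 libraries, with DSF 2 the lowest. For Mcm2 the levels were 167, 151 and 181 CPM in control, 152, 133 and 145 under DSF, 170, 157 and 158 under anti-PD-1 and 173, 154 and 175 in the combination. Here DSF 1 and control 2 met, at 152 and 151, and the combination lay above DSF without overlap. Levels of Mcm5 were 172, 133 and 163 CPM in control, 152, 124 and 116 under DSF, 176, 148 and 156 under anti-PD-1 and 164, 160 and 181 in the combination. The 3 combination libraries were above the 3 DSF libraries, while control 2, at 133, fell among those of DSF.

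Mcm6 was at 381, 292 and 338 CPM in the control libraries, 373, 278 and 297 under DSF, 387, 345 and 368 under anti-PD-1 and 365, 327 and 366 in the combination. Mcm6 varied more among the DSF libraries than between the group means. In the controls Cdc6 measured 50.2, 39.8 and 54.5 CPM, with 37.9, 38.4 and 44.2 under DSF, 48.1, 48.9 and 48.1 under anti-PD-1 and 50, 43.4 and 43 in the combination. The anti-PD-1 libraries were nearly equal, and the controls ranged from below to above them. Mcm7 spread more than any other helicase subunit, from 139 CPM in DSF 2 to 282 in control 1, with the other 2 controls at 158 and 157. Mcm3 had means of 190 ± 31.4, 162 ± 11.8, 188 ± 9.3 and 179 ± 8.2 CPM in control, DSF, anti-PD-1 and combination (SD, n = 3).

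The 3 control libraries held 322, 282 and 323 CPM of Pcna, those of DSF 315, 250 and 320, those of anti-PD-1 337, 291 and 312 and those of the combination 375, 302 and 342. The highest was a combination library and the lowest was DSF 2, and every pair of groups overlapped. The ribonucleotide reductase subunits did not share an order. For Rrm1 the levels were 232, 216 and 204 CPM in control, 209, 172 and 181 under DSF, 228, 199 and 225 under anti-PD-1 and 219, 186 and 201 in the combination. Rrm1 was lowest in DSF 2. Levels of Rrm2 were 206, 161 and 177 CPM in control, 171, 201 and 184 under DSF, 231, 169 and 171 under anti-PD-1 and 215, 196 and 236 in the combination. Rrm2, the subunit whose level limits the enzyme in S phase, was lowest in control 2 and highest in combination 3. Thymidylate synthase, Tyms, ranged from 50.7 to 75 CPM with its lowest library in anti-PD-1, and the licensing factor Cdt1 from 61.4 to 98.4 CPM with its lowest in DSF.

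Gins2 was at 21.6, 17.6 and 21.9 CPM in the control libraries, 26.9, 21.2 and 20.2 under DSF, 24, 23.2 and 22.7 under anti-PD-1 and 26, 22.2 and 22.9 in the combination. Unlike the helicase subunits, Gins2, a part of the complex that completes the active helicase, had its lowest group mean in control and its highest single value in DSF 1. In the controls Ccne1 measured 16.7, 17.8 and 17.9 CPM, with 15.9, 14.8 and 15.1 under DSF, 19.1, 14 and 17.6 under anti-PD-1 and 19.9, 16.3 and 18.1 in the combination. The 3 DSF values of Ccne1 lay below the 3 controls and the 3 combination values. The 3 control libraries held 22.1, 14.1 and 19.1 CPM of Ccne2, those of DSF 21.4, 21 and 16, those of anti-PD-1 22.7, 16.4 and 26.3 and those of the combination 24, 19.6 and 29.9. Ccne2 was the most variable member, and each of its groups spanned a wide range.

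**Figure D2:**
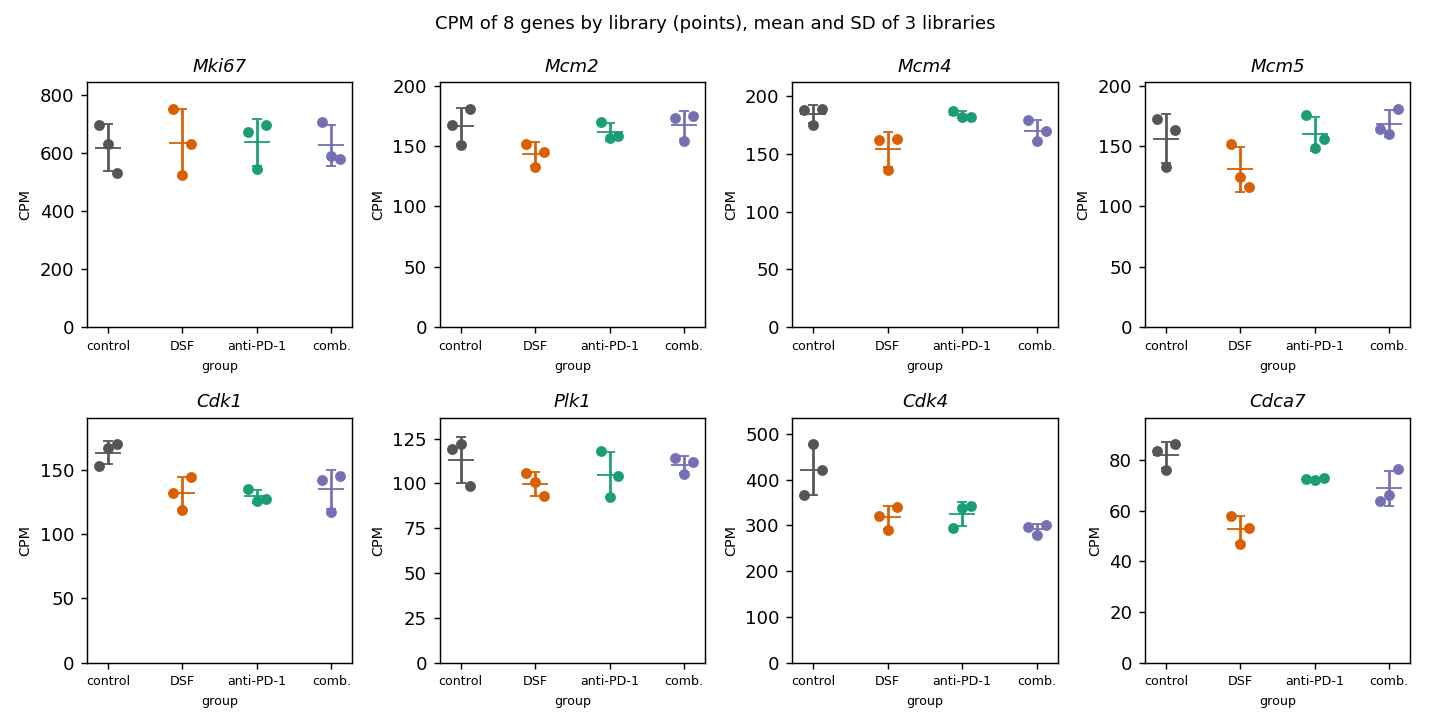
CPM of 8 genes by library (points) with the mean and SD of 3 libraries per group, from 0. Cdk1 lies above 150 CPM in the 3 controls and at or below 145 in all 9 treated libraries, and Cdk4 and Cdca7, which are not among the 40 members, are drawn beside it.

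Of the 23 mitosis genes, Cdk1, the kinase that drives entry into mitosis, was the one whose controls stood clear of all treated libraries. For Cdk1 the levels were 153, 167 and 170 CPM in control, 132, 119 and 144 under DSF, 135, 126 and 127 under anti-PD-1 and 142, 117 and 145 in the combination. The lowest control, 153, was above the highest of the 9 treated libraries, 145. Such an order, 3 controls above all 9 others, held for 1 of the 40 members and for 0.297% of the genes tested. Its regulatory partners did not show it. Levels of Ccnb1 were 130, 118 and 121 CPM in control, 125, 115 and 112 under DSF, 128, 106 and 127 under anti-PD-1 and 139, 120 and 132 in the combination. Cyclin B1 overlapped between all groups, its lowest library being anti-PD-1 2. Cyclin A2 had means of 324 ± 46.4, 298 ± 43.3, 310 ± 31.8 and 332 ± 37.7 CPM in control, DSF, anti-PD-1 and combination, and cyclin B2 (Ccnb2) of 119 ± 6.5, 120 ± 12, 115 ± 10.8 and 116 ± 19 (SD, n = 3). The phosphatase Cdc25c, which activates Cdk1, ranged from 24.1 to 34 CPM with both its lowest library, control 3, and its highest, combination 1, outside DSF.

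Plk1 was at 119, 122 and 98.4 CPM in the control libraries, 106, 101 and 92.7 under DSF, 118, 92.6 and 104 under anti-PD-1 and 114, 105 and 112 in the combination. The groups of the Polo kinase Plk1 overlapped, and its lowest libraries were anti-PD-1 2 and DSF 3. In the controls Foxm1 measured 250, 204 and 208 CPM, with 249, 161 and 183 under DSF, 231, 210 and 230 under anti-PD-1 and 228, 201 and 212 in the combination. Foxm1, the transcription factor of the G2 programme, spread most within DSF, where it had its lowest value and one close to its highest. Aurora A (Aurka) was at 86.2 ± 0.483 CPM in control and 82.1 ± 13.5 under DSF, and Aurora B (Aurkb) at 74.7 ± 7.77 and 67.6 ± 12.3 (SD, n = 3).

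The 3 control libraries held 160, 147 and 153 CPM of Bub1b, those of DSF 162, 126 and 121, those of anti-PD-1 165, 139 and 157 and those of the combination 163, 141 and 161. Of the checkpoint genes, Bub1b was lowest in DSF 2 and DSF 3, while DSF 1 was among its higher libraries. For Bub1 the levels were 108, 103 and 108 CPM in control, 112, 88 and 104 under DSF, 103, 98.9 and 113 under anti-PD-1 and 111, 84.5 and 95.4 in the combination. The kinase Bub1, which recruits Bub1b to kinetochores, overlapped between all groups. Levels of Mad2l1 were 80.4, 75.5 and 88 CPM in control, 75.4, 64.7 and 84.2 under DSF, 75.5, 70.6 and 74 under anti-PD-1 and 76.9, 63 and 78.1 in the combination. Mad2l1, the protein that inhibits Cdc20, was lowest in combination 2, and its treated libraries lay partly within the control range. The checkpoint kinase Ttk ranged from 45.7 to 61 CPM, both ends being combination libraries.

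Cdc20 was at 170, 124 and 128 CPM in the control libraries, 153, 118 and 121 under DSF, 173, 126 and 136 under anti-PD-1 and 171, 124 and 176 in the combination. The activator of the anaphase-promoting complex, Cdc20, had 1 or 2 libraries well above the rest in each group. In the controls Cenpf measured 113, 141 and 149 CPM, with 132, 135 and 152 under DSF, 117, 120 and 133 under anti-PD-1 and 140, 110 and 109 in the combination. Cenpf was lowest in combination 3 and combination 2 and highest in DSF 3. The 3 control libraries held 122, 103 and 113 CPM of Nusap1, those of DSF 148, 107 and 127, those of anti-PD-1 119, 104 and 119 and those of the combination 145, 102 and 129. The microtubule-bundling protein Nusap1 was highest in DSF 1 and combination 1. The motors Kif11, Kif20a and Kif23, the kinetochore motor Cenpe, the spindle factor Tpx2, Birc5 and Ube2c had highest-to-lowest ratios of 1.25 to 1.52 over the 12 libraries.

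Promoter sequences show how the 2 groups of members differ in a property that the expression values did not enter. Of the 40 members, 31 had a window in the RefSeq promoter table of build GRCm38.p6, each from 250 bases before to 50 after an annotated transcript start. The letters TTTGAA or TTCGAA on either strand, written for the CHR element that the MuvB complex binds, were in 12 of 17 mitosis genes, 2 of 12 replication genes and 21.7% of all 27025 genes with a window. In all 12 of these mitosis genes a match was centred between 40 bases before and 50 after the start, as it was in 0 replication genes and in 5.65% of all genes. These limits were chosen after seeing the positions. CCAAT, the letters of the NF-Y box, was in 14 of 17 mitosis and 8 of 12 replication genes against 41.1% of all genes. TTCCCGC or TTGGCGC, letters of the E2F site, were in 7 of 12 replication genes, 2 of 17 mitosis genes and 7.79% of all genes. ATTGG, the reverse of CCAAT, and TTGGCGC can overlap. A match is a description of letters and not a bound site.

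The sequences below, from RefSeq, show the last 180 bases before the start, on the strand of the gene, for 2 replication genes with E2F letters, Mki67 with all 3 motifs, and 3 mitosis genes with CHR letters. Capitals mark the letters of the 3 motifs. Mcm5 is at chr8:75109329-75109508, Mcm6 at chr1:128359706-128359885, Mki67 at chr7:135716380-135716559, Cdk1 at chr10:69352913-69353092, Cdc20 at chr4:118437344-118437523 and Ube2c at chr2:164769749-164769928. Mcm5 and Ube2c lie on the plus strand and the other 4 on the minus strand.
Mcm5: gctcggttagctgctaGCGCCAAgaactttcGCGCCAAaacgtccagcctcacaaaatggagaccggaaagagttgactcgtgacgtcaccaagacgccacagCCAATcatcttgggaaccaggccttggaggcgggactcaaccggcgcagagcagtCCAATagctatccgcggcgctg
Mcm6: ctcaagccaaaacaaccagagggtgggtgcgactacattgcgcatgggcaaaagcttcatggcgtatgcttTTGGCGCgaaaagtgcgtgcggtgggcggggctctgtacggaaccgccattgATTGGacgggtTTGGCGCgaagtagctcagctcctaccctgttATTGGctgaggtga
Mki67: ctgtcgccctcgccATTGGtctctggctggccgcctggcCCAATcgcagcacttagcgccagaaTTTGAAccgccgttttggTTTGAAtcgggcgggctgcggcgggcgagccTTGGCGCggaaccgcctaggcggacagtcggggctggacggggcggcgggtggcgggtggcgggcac
Cdk1: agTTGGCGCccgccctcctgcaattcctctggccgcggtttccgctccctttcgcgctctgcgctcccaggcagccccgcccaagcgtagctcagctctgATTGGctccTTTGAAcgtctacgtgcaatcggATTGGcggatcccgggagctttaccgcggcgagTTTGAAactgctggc
Cdc20: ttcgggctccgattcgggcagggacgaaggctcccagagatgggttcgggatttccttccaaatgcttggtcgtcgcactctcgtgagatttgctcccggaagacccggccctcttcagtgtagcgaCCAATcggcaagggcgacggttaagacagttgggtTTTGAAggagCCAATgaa
Ube2c: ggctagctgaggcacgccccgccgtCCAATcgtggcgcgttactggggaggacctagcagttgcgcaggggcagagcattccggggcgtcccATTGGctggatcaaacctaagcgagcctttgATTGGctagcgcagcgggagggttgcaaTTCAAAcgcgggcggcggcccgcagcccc

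**Figure D3:**
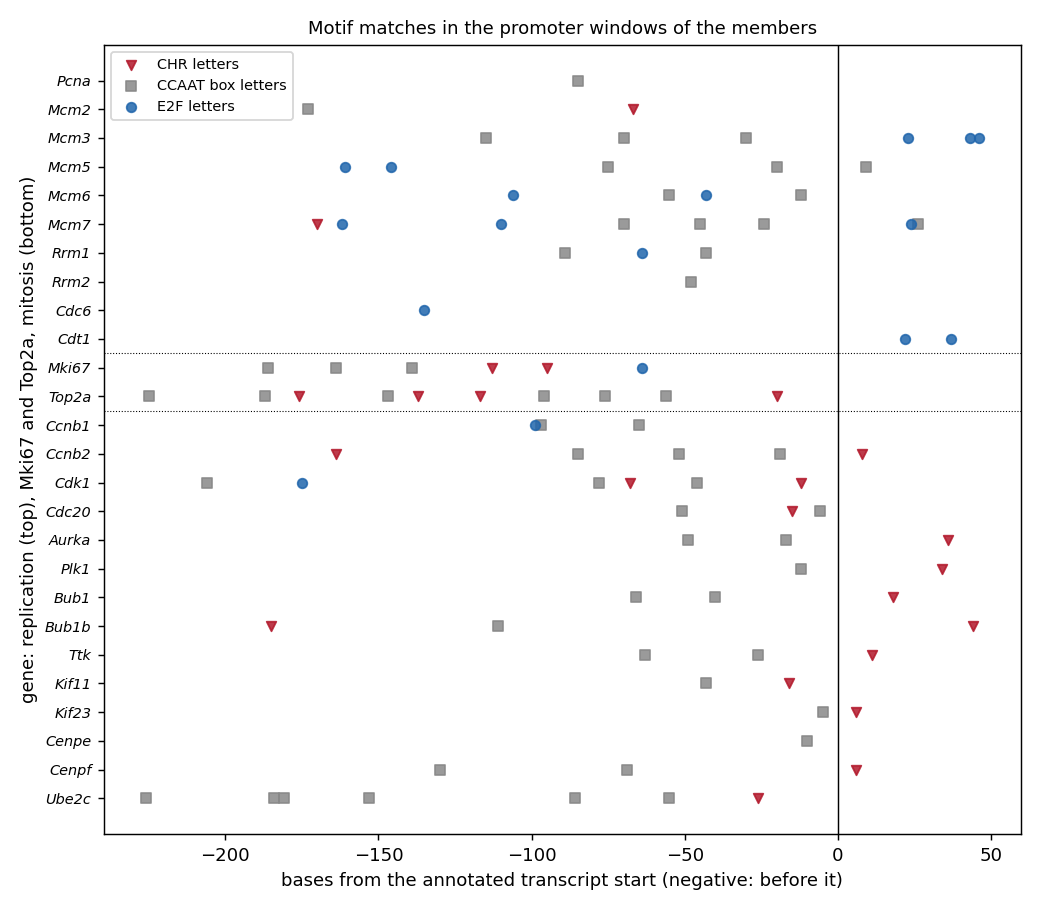
Each marker is the centre of a motif match, in bases from the annotated start, for the members with at least 1 match; windows of a gene with more than 1 are drawn together. CHR letters of the mitosis genes gather near the start, and the CCAAT boxes lie mostly before it.

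Cdk1 was the only one of the 17 mitosis genes apart from Ccnb1 with E2F letters, and its window also held 2 CHR matches. In the Cdk1 sequence above the E2F letters open the stretch, and a CHR match stands close to the start. Mcm5 and Mcm6, which carry 2 E2F matches each, had no CHR match in their windows. Whether these letters bear on the levels in the tumours was not tested.

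The comparison of DSF with control asks what the oral drug alone did to the tumours. Of the 40 members 30 had a negative and 10 a positive log2 fold change, the replication genes with a median of -0.20 (4 of 15 positive), the mitosis genes with -0.07 (5 of 23 positive), and all 14144 genes with 0.03. The quasi-likelihood test of edgeR with Benjamini-Hochberg adjustment called 0 of 40 members at an adjusted p under 0.05, where it called 0% of all genes. Unadjusted p was under 0.05 for 3 members, 7.5% against 10.3% of all genes, and DESeq2 called 0 members. Among the replication genes the smallest p-values were those of Mcm4 (-0.26 ± 0.09, log2 fold change ± SE), Mcm2 (-0.21 ± 0.09) and Cdc6 (-0.26 ± 0.12), with edgeR adjusted p of 0.352, 0.464 and 0.487. Among the mitosis genes they were those of Cdk1 (-0.31 ± 0.10), Plk1 (-0.18 ± 0.11) and Bub1b (-0.17 ± 0.12), with edgeR adjusted p of 0.348, 0.593 and 0.649.

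Each interval gives the range of a difference between the DSF and control libraries. It holds for 1 gene at a time, without adjustment over genes, and is not a bound on the action of the drug. No member's 95% interval reached a 2-fold change in either direction, and the limit furthest from 0, for Mcm7, was -0.70. The intervals of 29.7% of all genes reached it, but these include genes at lower levels than any member. Their median standard error was 0.173, against 0.127 for the members, and no share was taken over genes of like level. The replication median rested in large part on single libraries: it was -0.01 without control 1 and -0.23 without DSF 1. The mitosis median was 0.00 without DSF 2 and -0.13 without DSF 1, and without DSF 2 the number of members with an unadjusted p under 0.05 was 0. DSF lay below control without overlap for 2 replication genes (Mcm4, Ccne1) and 1 mitosis gene (Cdk1), 3 of 40 members against 6.4% of all genes. Of 11 marker lists 3 did not overlap between these groups: T cell markers summed to 34.5 to 44.3 CPM under DSF and 55 to 70.6 in control, 8 epithelial markers to 1289 to 1381 and 1129 to 1230, and skin and hair follicle markers to 98 to 225 and 245 to 482. Most of the epithelial sum was Krt8 (586 to 698 under DSF, 500 to 622 in control) and Krt18 (561 to 651, 555 to 597), and each overlapped. Krt19 did not (5.49 to 23.4, 1.36 to 4.2), and mean Epcam (4.26, 4.91) and Cdh1 (19.3, 19.8) were not higher under DSF. Mean Cldn3 (12.9, 5.01), Krt7 (28.1, 11.5) and Cldn7 (0.312, 0.0987) were higher under DSF, with libraries that overlapped. The part of these marker lists in the members' values was not tested.

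**Figure D4:**
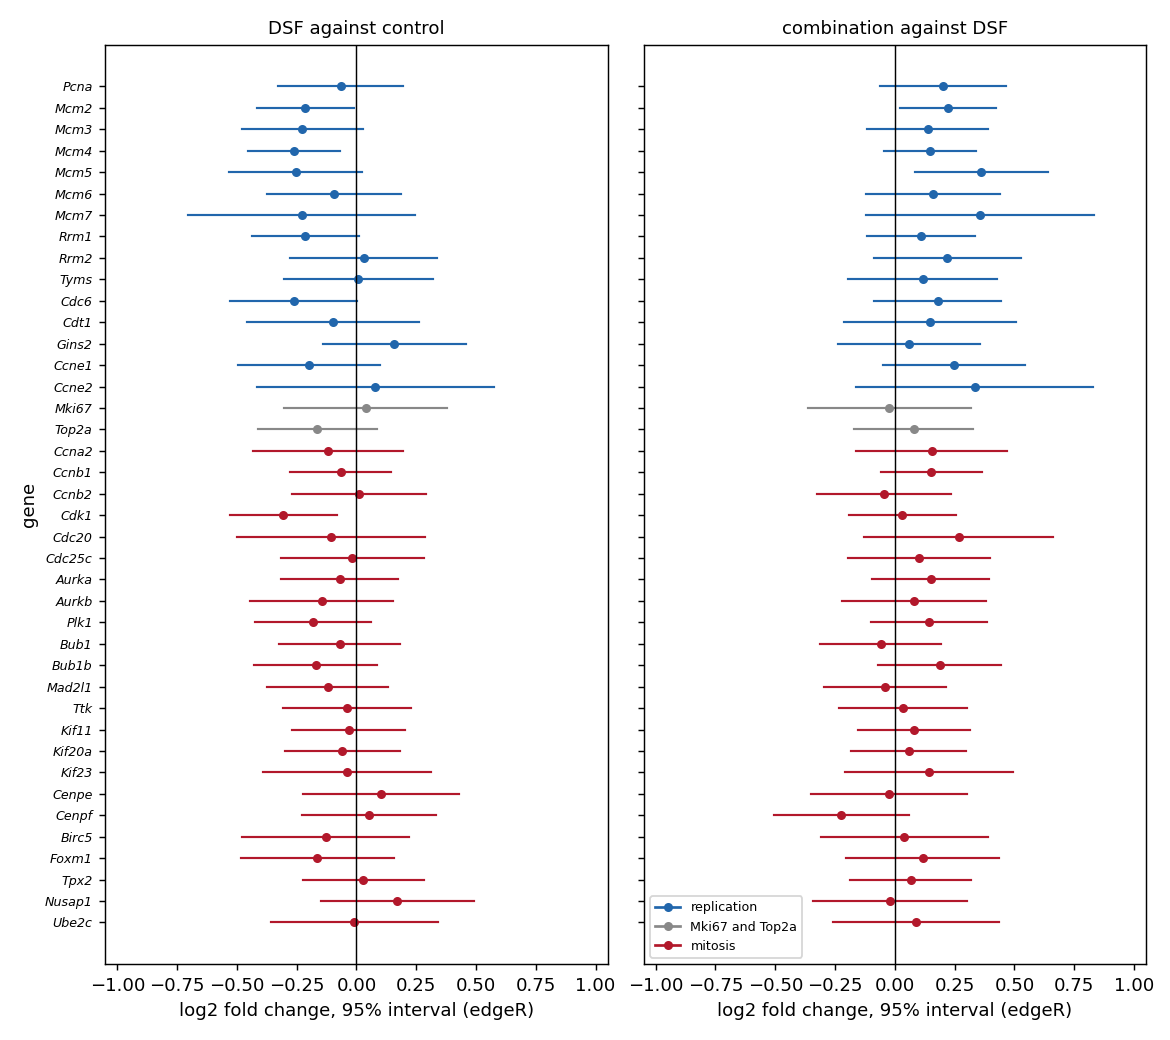
Log2 fold changes (points) of the 40 members with 95% intervals from the edgeR fit, for DSF against control (left) and combination against DSF (right). All intervals lie within a 2-fold change, and the 15 replication genes are all positive in the comparison of combination with DSF.

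In the comparison of anti-PD-1 with control the members were centred on 0. The median was 0.01 for the replication genes (9 of 15 positive), -0.02 for the mitosis genes (10 of 23 positive) and 0.00 for all genes. EdgeR called 0 of 40 members and 0% of all genes, and p was under 0.05 for 1 member, Cdk1, and 1.7% of all genes. DESeq2 called 0 members. The smallest p-values belonged to Gins2 (0.19 ± 0.14), Ccne2 (0.24 ± 0.23) and Mcm6 (0.12 ± 0.13), and to Cdk1 (-0.34 ± 0.10), Mad2l1 (-0.15 ± 0.12) and Plk1 (-0.11 ± 0.11), all at an edgeR adjusted p of 0.999. The highest upper limit of an interval was 0.74, for Ccne2.

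The combination against control gave medians of 0.06 for replication (11 of 15 positive), 0.02 for mitosis (12 of 23 positive) and 0.02 for all genes. EdgeR and DESeq2 called 0 of 40 members, edgeR called 0% of all genes, and p was under 0.05 for Cdk1 alone, 2.5% of members against 11.2% of all genes. Ccne2 (0.41 ± 0.23), Rrm2 (0.25 ± 0.14) and Gins2 (0.22 ± 0.14) had the smallest p-values among the replication genes, with edgeR adjusted p of 0.532, 0.545 and 0.577. Cdk1 (-0.28 ± 0.10), Mad2l1 (-0.16 ± 0.12) and Cenpf (-0.17 ± 0.13) had them among the mitosis genes, with edgeR adjusted p of 0.358, 0.636 and 0.655. The replication median was -0.01 without control 2 and 0.17 without control 1, so its sign is not settled by these libraries. The mitosis median was -0.06 without combination 1 and 0.10 without combination 2. T cell markers (76.4 to 92 CPM) and skin and hair follicle markers (910 to 2850) were above their control ranges, with a part in these values that was not tested.

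Cdk1 thus had negative fold changes of similar size against control in all 3 treated groups. The 3 comparisons share the 3 control libraries, so they are not independent of one another. Its edgeR fold change ranged over single libraries left out from -0.35 to -0.23 with DSF, from -0.37 to -0.30 with anti-PD-1 and from -0.33 to -0.19 with the combination. The edgeR test of any difference among the 4 groups gave Cdk1 an adjusted p of 0.283. It called 0 of 40 members and 0% of all genes, and the unadjusted value was under 0.05 for 2 members, Cdk1 and Mcm4, 5% against 13% of all genes. Mcm4 had an edgeR adjusted p of 0.351. The likelihood ratio test of DESeq2 put Cdk1 under the threshold, at an adjusted p of 0.0486, as the single member among the 6.22% of genes that it called. Next among replication genes by edgeR p were Mcm5 and Mcm2, with adjusted p of 0.432 and 0.499, and among mitosis genes Cenpf and Bub1b, with 0.675 and 0.72.

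The combination against DSF, which asks what the antibody added to the drug, gave replication genes fold changes of 1 sign. All 15 replication genes had a positive log2 fold change, with a median of 0.18, where 46.2% of all genes were positive with a median of -0.02. The mitosis genes had a median of 0.08 with 17 of 23 positive. The genes share their libraries, so 15 of 15 is not 15 observations. EdgeR called 0 of 40 members against 1.64% of all genes, DESeq2 called 0, and p was under 0.05 for 2 members, 5% against 18.7% of all genes.

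Mcm5 (0.36 ± 0.13), Mcm2 (0.22 ± 0.09) and Ccne1 (0.25 ± 0.13) had the smallest p-values, with edgeR adjusted p of 0.151, 0.221 and 0.358. For these 3 members the combination lay above DSF without overlap, as it did for 12.3% of all genes tested. Of the mitosis genes, Cenpf (-0.22 ± 0.13), Bub1b (0.19 ± 0.12) and Ccnb1 (0.15 ± 0.10) came first, with edgeR adjusted p of 0.382, 0.429 and 0.431, and for none of the 23 were the combination libraries all above those of DSF. Leaving out 1 library kept the replication median positive, from 0.11 without combination 1 to 0.25 without DSF 1, and moved the mitosis median from -0.02 without combination 1 to 0.16 without combination 2. Without DSF 2 no member had p under 0.05. Of the 11 marker lists 3 did not overlap between the combination and DSF: 7 T cell markers summed to 76.4 to 92 CPM in the combination and 34.5 to 44.3 under DSF, 8 neutrophil markers to 119 to 192 and 323 to 432, and 9 skin and hair follicle markers to 910 to 2850 and 98 to 225. Macrophage markers and B and plasma cell markers overlapped. No T cell marker was at 0 in every library. Dividing host cells carry the same replication RNAs, and their part in these values was not tested.

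The combination against anti-PD-1 gave medians of 0.05 for replication (10 of 15 positive), 0.06 for mitosis (18 of 23 positive) and 0.01 for all genes. EdgeR and DESeq2 called 0 of 40 members, edgeR called 0% of all genes, and no member but 10.2% of all genes had p under 0.05. Mcm4 (-0.11 ± 0.09), Rrm2 (0.18 ± 0.14) and Rrm1 (-0.10 ± 0.10) came first among replication genes, with edgeR adjusted p from 0.668 to 0.737, and Ccnb1 (0.12 ± 0.10), Bub1 (-0.11 ± 0.12) and Nusap1 (0.13 ± 0.15) among mitosis genes, with edgeR adjusted p from 0.673 to 0.763. The mitosis median was -0.03 without combination 1. Neutrophil markers (119 to 192 against 372 to 460 CPM) and macrophage markers (1819 to 1903 against 1013 to 1690) did not overlap between these groups, and their part was not tested.

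DSF against anti-PD-1 gave a negative log2 fold change for 14 of 15 replication genes, with a median of -0.17, and for 13 of 23 mitosis genes, with a median of -0.03, beside 0.02 for all genes. EdgeR called 0 of 40 members against 0.0707% of all genes, DESeq2 called 0, and p was under 0.05 for 3 members, 7.5% against 7.71%. These were Mcm4 (-0.26 ± 0.09), Mcm5 (-0.29 ± 0.13) and Cdc6 (-0.27 ± 0.12), with edgeR adjusted p of 0.528, 0.643 and 0.643. Bub1b (-0.17 ± 0.12), Cenpf (0.18 ± 0.13) and Foxm1 (-0.18 ± 0.15) led the mitosis genes, with edgeR adjusted p of 0.76, 0.782 and 0.814. The replication median stayed negative whichever library was left out, from -0.25 to -0.12, and without DSF 2 no member had p under 0.05. T cell markers (34.5 to 44.3 against 44.8 to 83 CPM) and epithelial markers (1289 to 1381 against 968 to 1245) did not overlap between these groups, and their part was not tested. Most of the epithelial sum was Krt8 (586 to 698 against 450 to 606) and Krt18 (561 to 651 against 480 to 574), and each overlapped. Krt19 did not (5.49 to 23.4 against 1.54 to 4.29).

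The interaction asks whether the effect of DSF differed in the presence of anti-PD-1, as the log2 change with DSF under the antibody minus that without it. Its median was 0.15 for replication (14 of 15 positive), 0.11 for mitosis (18 of 23) and -0.02 for all genes. Leaving out 1 library moved the replication median from 0.05 without control 1 (10 of 15 positive) to 0.22 without control 2. It moved the mitosis median from 0.02 without combination 1 to 0.20 without combination 2. The median standard error of a single member was 0.18. EdgeR and DESeq2 called 0 of 40 members, edgeR called 0% of all genes, and p was under 0.05 for 1 member, Cdk1, and 12.3% of all genes. Mcm2 (0.27 ± 0.13), Mcm5 (0.33 ± 0.18) and Ccne1 (0.30 ± 0.19) had edgeR adjusted p of 0.447, 0.498 and 0.563. Cdk1 (0.37 ± 0.14), Plk1 (0.25 ± 0.16) and Ccnb1 (0.19 ± 0.14) had 0.344, 0.55 and 0.621. Cdk1 was below the shared controls by a similar amount in every treated group, which by itself makes its interaction positive. Only here did a member's interval pass a 2-fold change, that of Mcm7 with an upper limit of 1.02.

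Both groups that received DSF against both that did not, the main effect of DSF, gave medians of -0.06 for replication (5 of 15 positive) and -0.01 for mitosis (11 of 23 positive). EdgeR and DESeq2 called 0 of 40 members, edgeR called 0% of all genes, and p was under 0.05 for Mcm4 alone and 7.96% of all genes. Mcm4 (-0.19 ± 0.06), Rrm1 (-0.16 ± 0.07) and Cdc6 (-0.18 ± 0.09) had edgeR adjusted p from 0.594 to 0.625, and Cdk1 (-0.12 ± 0.07), Nusap1 (0.15 ± 0.10) and Foxm1 (-0.11 ± 0.10) from 0.65 to 0.737. The main effect of anti-PD-1, formed in the same way, gave a median of 0.10 for replication, with all 15 genes positive. The median was 0.03 for mitosis (15 of 23 positive), where 47.3% of all genes were positive. For each gene this effect averages anti-PD-1 against control and the combination against DSF. Their replication medians were unlike, at 0.01 (9 of 15 positive) and 0.18 (15 of 15 positive). The genes share their libraries, so 15 of 15 is not 15 observations. EdgeR and DESeq2 called 0 of 40 members, edgeR called 0% of all genes, and p was under 0.05 for Mcm5 alone and 9.96% of all genes. Mcm5 (0.20 ± 0.09), Ccne2 (0.29 ± 0.16) and Mcm6 (0.14 ± 0.09) had edgeR adjusted p of 0.492, 0.593 and 0.655, and Cdk1 (-0.15 ± 0.07), Cenpf (-0.17 ± 0.09) and Cdc20 (0.15 ± 0.13) of 0.517, 0.559 and 0.734.

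A score for each library, the mean over genes of log2 CPM minus the gene's own mean over 12 libraries, shows replication and mitosis side by side. The replication score was 0.14, -0.19 and 0.04 in the controls, -0.01, -0.22 and -0.13 under DSF, 0.13, -0.04 and 0.04 under anti-PD-1, and 0.15, -0.05 and 0.15 in the combination. All 3 DSF libraries were below 0, and control 2 was lower than 2 of them. The mitosis score was 0.09, -0.03 and 0.02 in the controls, 0.09, -0.19 and -0.03 under DSF, 0.05, -0.10 and 0.01 under anti-PD-1, and 0.17, -0.17 and 0.07 in the combination. Mitosis minus replication was positive in all 3 DSF libraries, from 0.03 to 0.11, and from -0.08 to -0.02 under anti-PD-1 and -0.12 to 0.03 in the combination. The controls spanned more than these groups, from -0.04 to 0.16, so DSF did not stand apart from control in this difference. No p is given for these scores, because they summarise genes chosen as a list.

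**Figure D5:**
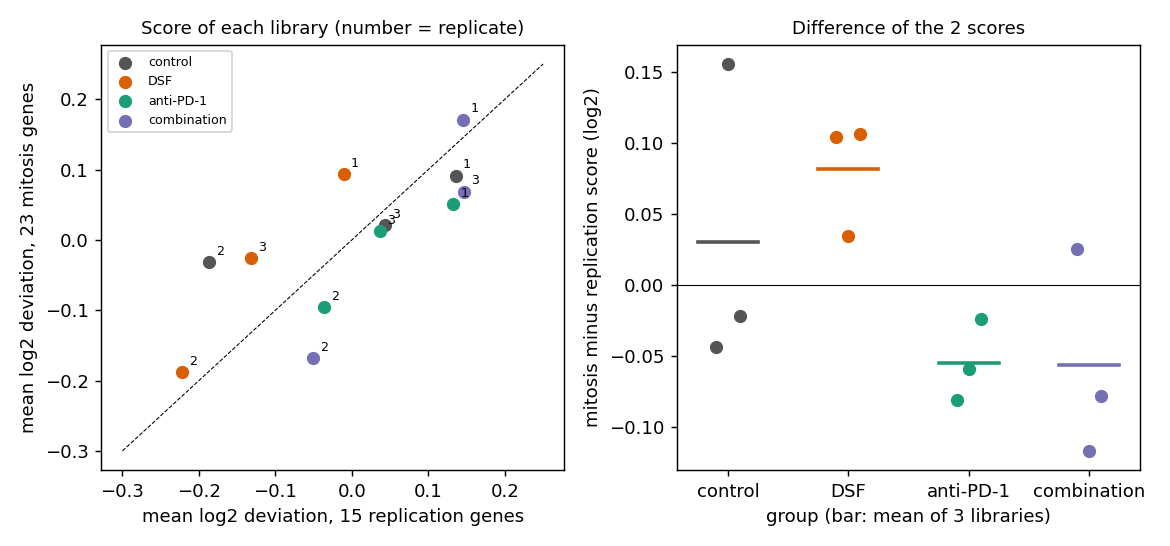
Left, replication against mitosis score of each library, with the dashed line where they are equal; right, mitosis minus replication score by group, with the mean of 3 libraries as a bar. The DSF libraries lie above 0 in the right panel, and control 2 lies above all of them.

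Genes of the same pathway outside the 40 were read from 4 further lists. Of 50 other replication and S phase genes, edgeR called 0 in every comparison. With DSF against control 42 of the 50 had a negative fold change, with a median of -0.16, where 55.6% of all genes were positive. Unadjusted p was under 0.05 for 9, 18% against 10.3% of all genes. These genes share their libraries, so 42 of 50 is not 42 observations. Their lead was Cdca7 (-0.64 ± 0.10, edgeR adjusted p = 0.18), a Myc and E2F target that recruits a chromatin remodeller, and Pola2 (-0.38 ± 0.10, adjusted p = 0.248), a subunit of the polymerase that primes synthesis. For Cdca7 the levels were 83.7, 76.3 and 86.4 CPM in control, 57.8, 46.9 and 53.2 under DSF, 72.6, 72 and 72.9 under anti-PD-1 and 63.7, 66.3 and 76.6 in the combination. The 3 DSF values of Cdca7 were below the other 9. The same order held for Rfc5, Rpa2, Fen1 and Ung, 5 of the 50 genes with Cdca7, for 0 of the 40 members and for 1.97% of all genes, and these genes were picked out after their values were seen. DESeq2 called Cdca7 at an adjusted p of 2.62e-05 and Pola2 at 0.0189. Against DSF, the combination had 45 of 50 positive with a median of 0.16, where 46.2% of all genes were positive. Unadjusted p was under 0.05 for 8 of the 50, 16% against 18.7% of all genes. Cdca7 (0.39 ± 0.10, edgeR adjusted p = 0.0704) and the single-strand binding subunit Rpa2 (0.54 ± 0.14, adjusted p = 0.0717) led, and DESeq2 called both, at 0.014 and 0.0177. Against anti-PD-1, DSF had all 50 negative, with a median of -0.17, where 55.1% of all genes were positive. Unadjusted p was under 0.05 for 6 of the 50, 12% against 7.71% of all genes. The shared libraries limit the 45 of 50 and the 50 of 50 in the same way. Cdca7 (-0.46 ± 0.10) and Rpa2 (-0.41 ± 0.14) were in front, with edgeR adjusted p of 0.21 and 0.553, and DESeq2 called Cdca7 at 0.00873.

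In the other comparisons the same list was led by Pola2 (-0.24 ± 0.10) and Cdca7 (-0.18 ± 0.10) for anti-PD-1 against control, by Ung (0.38 ± 0.15), which removes uracil from DNA, and Cdca7 (-0.26 ± 0.10) for the combination against control, and by Ung (0.27 ± 0.15) and Dbf4 (-0.19 ± 0.11), the activator of the Cdc7 kinase, for the combination against anti-PD-1. The interaction was led by Cdca7 (0.57 ± 0.14) and Pola2 (0.38 ± 0.14), the main effect of DSF by Cdca7 (-0.36 ± 0.07) and Pola2 (-0.19 ± 0.07), and that of anti-PD-1 by Rpa2 (0.31 ± 0.10) and Ung (0.33 ± 0.11). EdgeR adjusted p-values of these pairs lay between 0.266 and 0.999, and DESeq2 called Cdca7 in the interaction, at 0.0273, and in the main effect of DSF, at 0.00216. The list's median was 0.00 both for the combination against control (25 of 50 positive) and against anti-PD-1 (24 of 50 positive).

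Of 62 other mitosis genes tested, edgeR called 0 in every comparison, and their median was -0.06 with DSF against control (17 of 62 positive) and 0.05 with the combination against DSF (39 of 62 positive). Of all genes 55.6% and 46.2% were positive there. The median of the 62 had the opposite sign to that of the 23 in the combination against anti-PD-1 (-0.02, 28 of 62 positive) and against control (-0.01, 30 of 62 positive). The smallest p-values were those of the kinetochore protein Knstrn (-0.25 ± 0.09) and the cohesin protector Cdca5 (-0.25 ± 0.11) with DSF against control, Bub3 (-0.14 ± 0.09) and Cks1b (-0.20 ± 0.12) with anti-PD-1 against control, and Cdc25b (0.46 ± 0.20) and Bub3 (-0.19 ± 0.09) with the combination against control. Spc25 (0.30 ± 0.13) and Cdca3 (0.21 ± 0.10) led for the combination against DSF, Cdca3 (0.24 ± 0.10) and Psrc1 (0.47 ± 0.26) against anti-PD-1, and Trip13 (-0.24 ± 0.12) and Knstrn (-0.16 ± 0.09) for DSF against anti-PD-1. The interaction was led by Cdca3 (0.34 ± 0.14) and Ccnf (0.39 ± 0.19), the main effect of DSF by Zw10 (-0.21 ± 0.08) and Knstrn (-0.15 ± 0.06), and that of anti-PD-1 by Cdca8 (0.20 ± 0.11) and Cdc25b (0.23 ± 0.14). The smallest edgeR adjusted p among these was 0.264, for Spc25.

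Among 30 regulators, the D cyclins with Cdk4 and Cdk6, the E2F and Rb families and the DREAM complex, edgeR called 0. Cdk4, the kinase that cyclin D turns on in G1, shared the pattern of Cdk1. Levels of Cdk4 were 366, 478 and 422 CPM in control, 321, 291 and 340 under DSF, 295, 337 and 343 under anti-PD-1 and 297, 279 and 301 in the combination. All 3 controls were above all 9 treated libraries, as they also were for Pola2. The edgeR fold changes of Cdk4 were -0.41 ± 0.11 with DSF, -0.38 ± 0.11 with anti-PD-1 and -0.53 ± 0.11 with the combination, with adjusted p of 0.25, 0.999 and 0.278, and DESeq2 called it with DSF (0.0253) and with the combination (0.00197). With these went Cdc25a (-0.29 ± 0.11) for DSF, Rb1 (0.22 ± 0.10) for anti-PD-1, and Myc (-0.41 ± 0.12) for the combination, which DESeq2 called at 0.0364. The combination against DSF was led by the activator E2f2 (0.73 ± 0.18, edgeR adjusted p = 0.0594) and the MuvB subunit Lin9 (-0.40 ± 0.14, adjusted p = 0.155).

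E2f2 was at 20.8, 14.7 and 17.6 CPM in the control libraries, 18.9, 16.3 and 12 under DSF, 19.9, 16.1 and 17.9 under anti-PD-1 and 25.2, 28.4 and 25 in the combination. For E2f2 the 3 combination values stood above the other 9, an order that held for 2.84% of all genes and for 0 of the 40 members. DESeq2 called it against DSF at an adjusted p of 0.00848. Against anti-PD-1 the combination was led by Ccnd3 (0.41 ± 0.13) and E2f2 (0.54 ± 0.18), DSF against anti-PD-1 by Ccnd1 (-0.37 ± 0.16) and Ccnd3 (0.21 ± 0.13), and the interaction by E2f2 (0.71 ± 0.25) and E2f4 (0.27 ± 0.12). The main effects were led by Cdk4 (-0.28 ± 0.08) and Myc (-0.28 ± 0.08) for DSF and by Cdk4 (-0.25 ± 0.08) and E2f2 (0.38 ± 0.13) for anti-PD-1. EdgeR adjusted p-values of these 5 comparisons were 0.278 or above.

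Of 27 inhibitors and parts of the anaphase-promoting complex tested, edgeR called 0. With DSF against control 18 of 27 were positive, 66.7% against 55.6% of all genes. They were led by the atypical cyclin Ccng2 (0.62 ± 0.19), which is linked to cell cycle arrest, and the Cdk4 and Cdk6 inhibitor Cdkn2d (0.45 ± 0.14), both at an edgeR adjusted p of 0.318. In the controls Ccng2 measured 81, 81.4 and 64.7 CPM, with 117, 98.5 and 133 under DSF, 57, 92.2 and 96.4 under anti-PD-1 and 68.1, 54.6 and 67.5 in the combination. All 3 combination values were below the 3 of DSF (-0.87 ± 0.19), with an edgeR adjusted p of 0.0503, and DESeq2 called Ccng2 at 0.000813. The share of all genes with this order was not counted. The reverse order, combination above DSF without overlap, held for 12.3% of all genes tested. The 3 control libraries held 18.2, 21.5 and 15.6 CPM of Gadd45a, those of DSF 27.6, 23.9 and 35.9, those of anti-PD-1 14, 38.3 and 23.2 and those of the combination 14.4, 13.1 and 10.7. Gadd45a, a stress-induced inhibitor of Cdk1 with cyclin B, had the same order in the combination against DSF (-1.19 ± 0.31, edgeR adjusted p = 0.069), and DESeq2 called it at 0.00534.

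The remaining comparisons of the inhibitors were led by Fzr1 (-0.24 ± 0.09) and Fbxo5 (-0.24 ± 0.12) for anti-PD-1 against control, by Cdkn1a (0.44 ± 0.14), which encodes p21, and Btg2 (0.46 ± 0.19) for the combination against control, and by Cdc16 (-0.30 ± 0.09) and Gadd45a (-0.98 ± 0.31) for the combination against anti-PD-1. DSF against anti-PD-1 was led by Ccng2 (0.50 ± 0.19) and Cdkn2d (0.31 ± 0.14), the interaction by Gadd45a (-1.64 ± 0.43) and Ccng2 (-0.98 ± 0.27), the main effect of DSF by Cdkn2d (0.30 ± 0.10) and Cdkn1a (0.29 ± 0.10), and that of anti-PD-1 by Ccng2 (-0.38 ± 0.14) and Gadd45a (-0.37 ± 0.21). EdgeR adjusted p-values of these were 0.27 or above, and DESeq2 called Gadd45a and Ccng2 in the interaction, at 0.0273 and 0.0408.

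The deposited transcript table splits the gene counts between 97 transcript models of the 40 members, of which 17 members have a single model. In 27 members the leading model held a median of 90% or more of the gene. Mcm5 was split between 2 coding models and a non-coding one, and the non-coding model held 41.5% to 46.7% of the gene's count in 11 libraries but 22.2% in DSF 3, the library with the lowest Mcm5. On the CPM scale the coding models of Mcm5 were at 89.3 ± 10.9 in control, 82.3 ± 12.9 under DSF, 91.1 ± 8.28 under anti-PD-1 and 94.1 ± 7.35 in the combination (SD, n = 3). Their values under DSF were 88.8, 67.4 and 90.5, and in the combination 87.3, 93.2 and 102, so the coding part alone overlapped between DSF and the combination where the whole gene did not. The non-coding part was at 62.9, 57 and 25.8 under DSF and at 66.7 to 78.8 in the combination. How well estimated counts tell such overlapping models apart is not known from these files. Shares of other members also varied by library: the leading Mki67 model held from 59.8% in anti-PD-1 2 to 85.9% in combination 3, while the leading Birc5 model held 74.1% to 81.3%.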

How the data were processed

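Total RNA of tumour tissue had been isolated with TRIzol and sequenced in 12 libraries on the BGISEQ-500 platform, per the labels' protocols. The submitters' processing notes name RSEM 1.2.12, HISAT2 2.0.4, DESeq2 1.4.5 and Bowtie2 2.2.5, with no role for any of them, and the genome build is not given in the sources used here. The authors deposited expected counts per gene and per transcript, of which 9.02% of the gene values are not whole, and FPKM values per gene. Column names were matched to titles by group and number, with 1 control column misspelt. Expected counts were rounded, 14144 genes passed filterByExpr, and TMM-scaled counts of all 12 libraries were fitted in 1 model with a mean per group by the quasi-likelihood test of edgeR 4.0.16 (R 4.3.3), two-sided, with Benjamini-Hochberg adjustment over all genes at 0.05. Standard errors and 95% intervals come from that test. CPM use TMM-scaled totals, and scores use log2 CPM with a prior count of 2. FPKM was compared as log2(FPKM + 1) and log2(FPKM + 0.1) with limma 3.58.1, which understates changes of low genes, and counts with DESeq2 1.42.0. Only the edgeR fit was tested on simulated counts, for the combination against DSF. The planted changes were larger than the fold change of any member, so changes of the members' size were not covered. Genes named with fold changes are, per comparison, the 3 replication and 3 mitosis members and the 2 genes of each other list with the smallest p. The members, the lists and the tests were chosen with earlier results of these data known.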

Additional observations from a re-analysis of the deposited data

How the results depend on the processing

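Of 206 counts of members called under 21 alternatives, 205 stayed at 0, as in the edgeR fit. The exception was DESeq2 in the test of any difference among the 4 groups, which called 1 member, Cdk1, and the cause was not tested. The alternatives were other filters, RLE or upper quartile scaling, DESeq2, limma on FPKM at both pseudocounts, fits of the compared groups alone, the replicate block, and leaving out each library in turn, where the counts called ranged from 0 to 0. None of the 2604 fold changes of named genes under alternatives changed sign, and 33, none of a member, passed the threshold only under an alternative. These genes were named for their small p in the edgeR fit, and the alternatives reuse its libraries, so stable signs were likely beforehand. Signs of other members did change. With DSF against control, positive replication genes went from 4 to 7 without control replicate 1, and positive mitosis genes from 5 to 11. Of 372 medians, 1 moved by more than the spread between libraries: the replication median of DSF against control was -0.01 without control replicate 1. With the replicate block, paired by library number, 0 members were called in every comparison, and 7 genes in all against 232 for the combination against DSF. DESeq2 called 1170 genes there, limma on FPKM 441 and 467 with the pseudocounts of 1 and 0.1, and the fit of both groups alone 0. Where edgeR called 0 genes, DESeq2 called 223 for DSF against control, 0 for anti-PD-1 against control, 250 for the combination against control, 65 for the combination against anti-PD-1, 235 for the interaction, 72 and 321 for the main effects of DSF and anti-PD-1 and 870 for any difference, and it called 146 for DSF against anti-PD-1, where edgeR called 10. No label says that a number marks a shared day or litter. Over all genes 10 of 18 same-numbered pairs of libraries had r over 0.1 in their deviations, from -0.365 to 0.462, with a median of 0.129 against -0.043 for other pairs, and 7 of 12 libraries correlated best with one of their own number. As a hint from the data and not the design, the library numbered 2 had the lowest replication and mitosis scores in all 4 groups. As a like hint, within numbers the replication score of the combination was above DSF, and that of DSF below control, in 3 of 3. For the mitosis score the combination was above DSF in 3 of 3, and DSF below control in 2 of 3. The replication scores of DSF 2 and control 2 were close, at -0.22 and -0.19. Relative to the level, counting error was larger for members with few counts, such as Ccne1 with 206 to 341 in a library. A median standard error of 0.127 on the log2 scale sets what 3 libraries per group resolve.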
